A study of Mus musculus with 8 samples.

Results

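Common helper-like innate lymphoid progenitors (ChILP) were compared with common lymphoid progenitors (CLP) across all genes, with weight on surface, adhesion, signalling, cytoskeletal and metabolic genes that are not themselves regulators of innate lymphoid or B cells. The comparison used 4 of the 8 libraries of the series, both labelled ChILP and both labelled CLP, and each of the 22878 gene symbols was represented by its transcript with the most reads. After a filter on low counts 13619 genes were tested. Of these, 1429 stood in 27 lists of surface, adhesion, signalling, cytoskeletal and metabolic genes, which are described here by counts and medians.

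All cells were sorted from marrow of the inbred mouse strain C57BL/6, with no mutation, transgene or treatment named. Both populations were depleted of lineage-positive cells and carried CD127 (the IL-7 receptor alpha chain) and Kit. The CLP gate further required Flt3 and Sca-1 and the absence of integrin α4β7. The ChILP gate required integrin α4β7 and the absence of Flt3 and T1/ST2, and the protocol calls these cells rChILP, a term it does not expand. Values of 2 further populations are set beside those of some of the named genes. These populations split the ChILP gate into PD-1+ CCR6- and PD-1- CCR6+ cells and were enriched by magnetic capture of α4β7 instead. The labels give no age or number of mice and do not say if both libraries of a population come from different animals, so a p-value here reflects spread between libraries that could be technical. In sorted bulk cells, fewer cells of a type and less RNA per cell cannot be told apart.

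CLP are marrow progenitors that can still give rise to B cells, T cells, natural killer cells and innate lymphoid cells, and the ChILP gate holds cells whose progeny are largely helper-like innate lymphoid cells. Progenitors at this branch read their surroundings through cytokine receptors, Notch, G protein-coupled receptors and integrins, pass these signals on through kinases and adaptors, and need the actin and myosin cytoskeleton to move and adhere. Many enzymes and motor proteins exist as closely related isoforms, one present in nearly all cells and another known chiefly from muscle or brain.

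Reads assigned to genes numbered 7685188 to 13997897 in the 4 libraries. Levels are given as the deposited RPKM (reads scaled by transcript length and library total), library 1 before library 2, and log2 fold changes are positive where ChILP was higher. Tcf7 (NM_009331), the gene of the factor TCF-1, stood at 0.546 and 1.11 RPKM in CLP and 58.5 and 102 RPKM in ChILP, and Flt3 (NM_010229), a gate gene, at 92.1 and 157 RPKM in CLP and 10.3 and 5.102 in ChILP, so both pairs of libraries matched their labels. Erythroid, neutrophil and monocyte transcripts were higher in both number 1 libraries than in both number 2 libraries. The 15 erythroid markers summed to 7670 and 10140 RPKM in the number 1 libraries of CLP and ChILP and to 3024 and 3335 RPKM in the number 2 libraries, and the 18 neutrophil and monocyte markers to 6004 and 7718 against 1717 and 2301 RPKM. The 13 myeloid progenitor markers summed to 7532 to 7639 RPKM in CLP and 8891 to 10630 RPKM in ChILP, and of these 3 lists and the mast cell and megakaryocyte lists no marker met the 4-fold rule used below. Of 11 mast cell and basophil markers only Mcpt4 had no read in the 4 libraries, and the 14 T and NK cell markers summed to 233 and 307 RPKM in CLP and 347 and 350.5 RPKM in ChILP. Nkg7 made up most of these T and NK cell sums, at 216 and 295 RPKM in CLP and 306 and 299 RPKM in ChILP. By the 4-fold rule 3 of these 14 T and NK cell markers were higher (21.4%), Cd3g and Trat1 among them, and 2 lower (14.3%). Over all genes tested the shares were 2.68% and 2.87%. Prf1 (3.73 and 1.06 RPKM in CLP, 0 and 0 in ChILP) and Gzmb (3.696 and 1.496 against 0.967 and 0 RPKM) ran lower in ChILP. Under the same rule 2 of 12 mature B and plasma cell markers were lower, H2-Ob among them. Among 15 plasmacytoid and dendritic cell markers 1 was higher and 1 lower. The PD-1+ and CCR6+ libraries stood apart from all 4, with erythroid markers at 34750 to 51250 RPKM, neutrophil and monocyte markers at 17160 to 37660 RPKM, mature B and plasma cell markers at 561 to 1044 RPKM and myeloid progenitor markers at 1248 to 2853 RPKM. The part of these markers in any level given for PD-1+ or CCR6+ cells was not tested.

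The first question was which genes passed a test over the whole transcriptome. By the quasi-likelihood test of edgeR, with p-values adjusted by Benjamini-Hochberg, 3 genes passed, 1 higher in ChILP (0.00734% of genes tested) and 2 lower (0.0147%). Myo1e, a motor protein, rose, and Cox6a2, a respiratory chain subunit, fell together with the gate gene Flt3. At an unadjusted p under 0.05, 380 genes were higher (2.79%) and 412 were lower (3.03%).

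Flt3 encodes the receptor tyrosine kinase by whose presence and absence the groups were sorted, so its fall of 3.94 on the log2 scale (SE 0.39) checks the gate and is not a finding. Cox6a2 (NM_009943) encodes the form of cytochrome c oxidase subunit VIa known from heart and skeletal muscle. It stood at 103 and 162 RPKM in the CLP libraries and at 7.15 and 11.5 RPKM in the ChILP libraries, so that the lower CLP library was still several-fold above the higher ChILP library. Cox6a2 fell by 3.76 on the log2 scale (SE 0.39, edgeR with Benjamini-Hochberg adjusted p = 0.0495). In the split populations it stood between these levels, at 23.6 and 29.7 RPKM in PD-1+ cells and 27.96 and 29.9 RPKM in CCR6+ cells.

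Myo1e (NM_181072) encodes an unconventional class I myosin that links the plasma membrane to actin. It was close to absent from CLP, with 0.0756 and 0.0553 RPKM from 8 reads in all, and stood at 2.49 and 5.78 RPKM in ChILP, from 666 reads. The rise was 6.02 on the log2 scale (SE 0.60, edgeR with Benjamini-Hochberg adjusted p = 0.0495), and it was 5.28 without ChILP replicate 2. Both PD-1+ libraries (8.001 and 6.65 RPKM) and both CCR6+ libraries (3.95 and 4.43 RPKM) held Myo1e above either CLP library. The calls depended on single libraries: no gene passed when CLP replicate 1, ChILP replicate 2 or CLP replicate 2 was left out, and without ChILP replicate 1 15 genes were higher and 9 lower, Myo1e and Flt3 among them (log2 fold changes 6.50 and -4.53) and Cox6a2 not (adjusted p = 0.0529). With limma on log2(RPKM + 1) Myo1e was not called (log2 fold change 2.19, adjusted p = 0.0669), while Cox6a2 and Flt3 were.

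**Figure D1:**
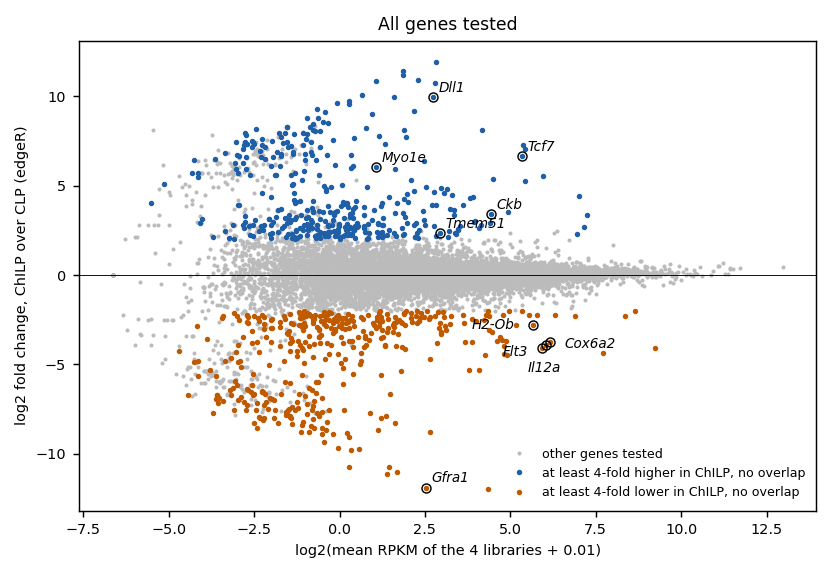
Each point is 1 of the 13619 genes tested, placed by its mean RPKM over the 4 libraries (log2 after adding 0.01) and by its log2 fold change, ChILP over CLP, from edgeR. Coloured genes had both libraries of a group above both of the other and a fold change of at least 4, 365 higher in ChILP (blue) and 391 lower (orange), and the 10 circled genes are among those with an adjusted p of at most 0.0593 by edgeR.

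Promoter windows (RefSeq, GRCm38.p6, 250 bases before to 50 after the start) are shown for Myo1e, the 1 called gene that rose, and for the gate gene Flt3. The set of windows used here held none for Cox6a2. Capitals mark matches on either strand to the GATA factor core GATAA, to the TCF factor core CTTTGA and to the E-box letters CAGNTG. The Myo1e window lies at chr9:70207100-70207399 on the + strand and holds none of these letters, and the Flt3 window lies at chr5:147400440-147400739 on the - strand and holds 1 CTTTGA match (read as TCAAAG) and 1 CAGNTG match.
Myo1e: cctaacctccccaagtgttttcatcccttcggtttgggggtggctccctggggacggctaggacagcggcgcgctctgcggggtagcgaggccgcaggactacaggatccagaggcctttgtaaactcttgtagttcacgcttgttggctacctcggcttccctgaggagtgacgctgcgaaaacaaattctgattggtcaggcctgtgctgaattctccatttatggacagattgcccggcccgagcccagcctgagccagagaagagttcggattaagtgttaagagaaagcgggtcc
Flt3: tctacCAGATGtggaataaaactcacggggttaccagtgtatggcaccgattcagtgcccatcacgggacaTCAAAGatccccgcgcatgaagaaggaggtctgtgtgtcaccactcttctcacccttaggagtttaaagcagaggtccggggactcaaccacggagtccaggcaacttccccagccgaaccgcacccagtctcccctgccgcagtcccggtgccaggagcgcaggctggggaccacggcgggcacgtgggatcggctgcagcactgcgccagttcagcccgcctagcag
Of the 20 leading genes higher in ChILP, 13 had a window, and 3 (23.1%) held GATAA, 2 (15.4%) CTTTGA and 6 (46.2%) CAGNTG. Of the 20 leading genes lower in ChILP, 14 had a window, with 3 (21.4%), 1 (7.14%) and 7 (50.0%). Among 9591 tested genes with a window the shares were 16.7%, 12.2% and 43.9%. No test was run on sets of this size, and a match describes letters and shows no binding.

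Since few genes passed the test, wider differences were described by a rule without a test: both libraries of a group above both of the other, and a fitted fold change of at least 4. By this rule 365 genes (2.68% of genes tested) were higher in ChILP and 391 (2.87%) lower. The regulators and genes of mature innate lymphoid cells held 31 higher and 1 lower of 48 tested, and the B lineage list 1 higher and 14 lower of 33. Of the 1429 tested members of the surface, adhesion, signalling, cytoskeletal and metabolic lists together, 52 (3.64%) were higher and 47 (3.29%) lower, the median log2 fold change was 0.11 against 0.05 for all genes, and 75.9% lay within 2-fold against 82.0%. The surface lists stood further apart, with 23 (6.18%) higher and 16 (4.30%) lower of 372 and 68.3% within 2-fold. These lists are wider than cell-surface receptors. They include 81 tested glycosyltransferase, sulfotransferase and proteoglycan genes, with 7 higher (8.64%) and 1 lower (1.23%). They also include 99 tested protease, inhibitor and matrix genes, with 5 higher (5.05%) and 4 lower (4.04%). The signalling lists held 12 (3.59%) higher and 11 (3.29%) lower of 334 and 69.8% within 2-fold. The counts for the surface lists were 59 higher and 20 lower when CLP replicate 1 was left out and 29 and 29 when CLP replicate 2 was. They were 33 higher and 35 lower when ChILP replicate 1 was left out and 37 and 20 when ChILP replicate 2 was. A gene could pass the filter through 1 group alone, so these counts describe the tested members and are no support for a shift. With 1 library left out more genes meet the rule, since fewer libraries must lie apart, and over all genes tested without it the counts were 466 to 910 higher and 637 to 831 lower.

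**Figure D2:**
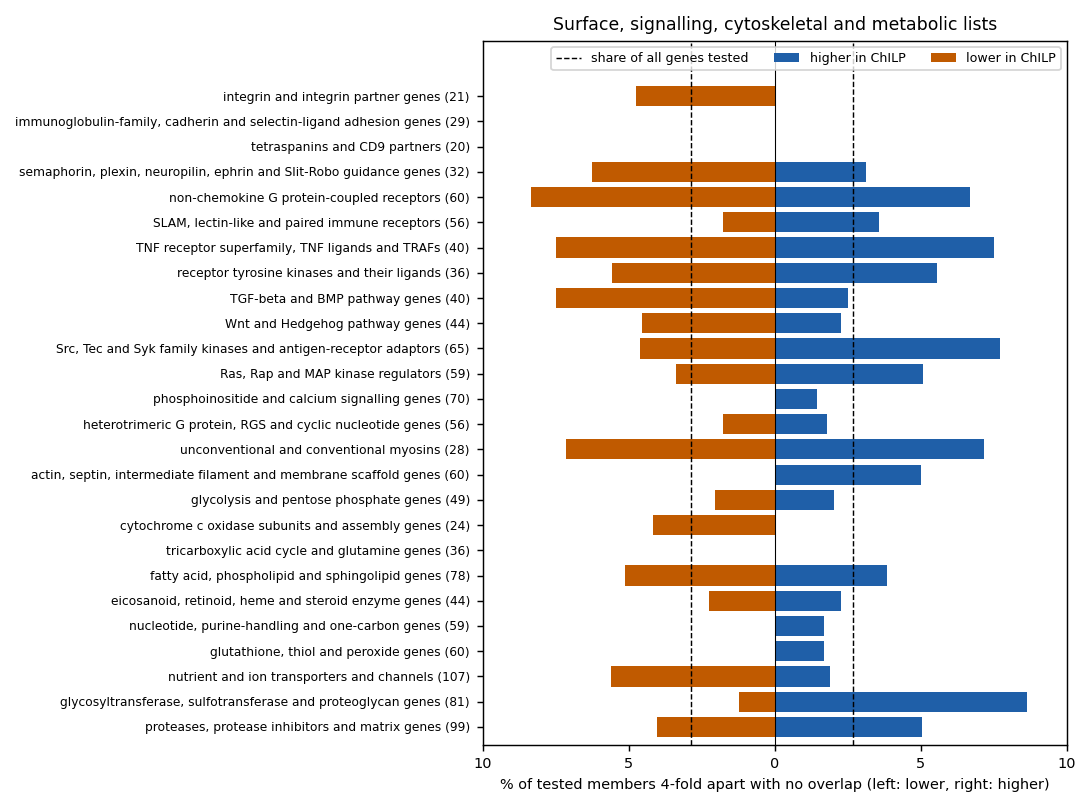
Bars give, for each of 26 lists, the percent of tested members (number in brackets) that were at least 4-fold lower (left, orange) or higher (right, blue) in ChILP with no overlap between libraries. The dashed lines mark the shares over all genes tested, 2.87% lower and 2.68% higher; most bars rest on 1 to 5 genes, and 3 lists have no bar.

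The genes with the smallest p in each direction, outside the gate, innate lymphoid and B lineage lists and averaging 10 RPKM or more where higher, included several surface proteins. None but Cox6a2 passed over all genes, so the following are levels in each library, with fold changes from edgeR.

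**Figure D3:**
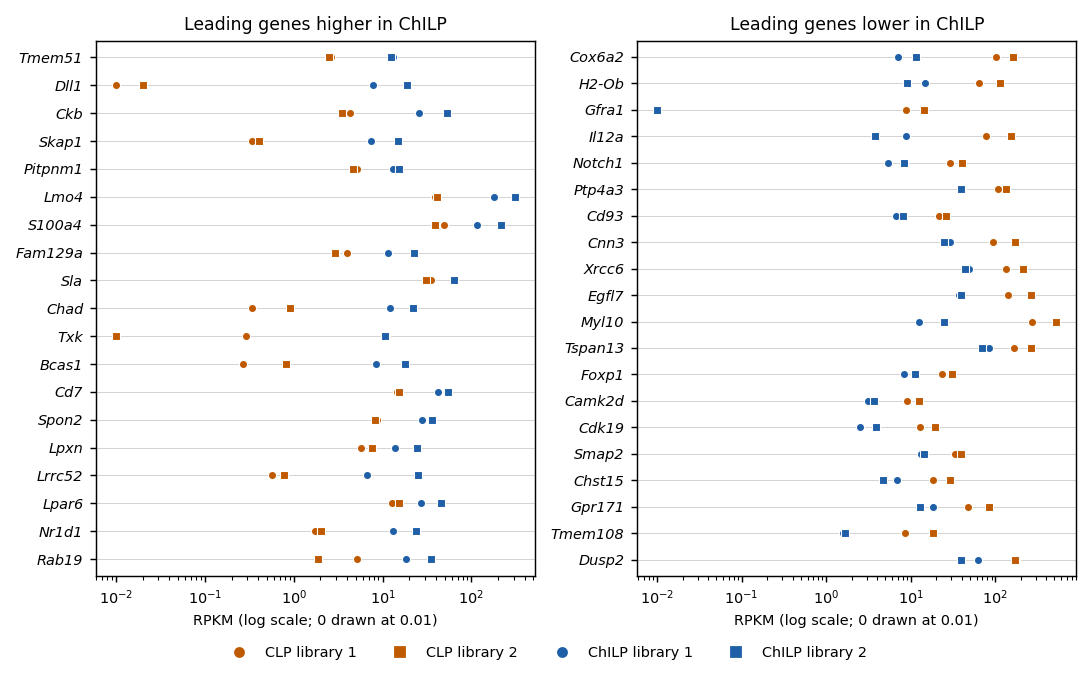
RPKM (log axis, 0 drawn at 0.01) of 19 leading genes higher in ChILP (left) and 20 lower in ChILP (right), with CLP in orange and ChILP in blue, library 1 as circles and library 2 as squares. In every row both libraries of 1 group lie to the same side of both libraries of the other, as the choice of these genes requires.

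Among cell-cell signalling genes, Notch pathway members stood on both sides. Notch1 (NM_008714), a receptor whose signal is needed for T cell fate, stood at 29.1 and 40.003 RPKM in CLP and 5.36 and 8.26 RPKM in ChILP, a log2 fold change of -2.28 (SE 0.33), and edgeR's adjusted p was 0.0812. Dll1 (NM_007865), which encodes a membrane-bound Notch ligand, had 1 read in the CLP libraries and stood at 7.83 and 18.7 RPKM in ChILP. The pooled rates differed by a ratio of 1165 (95% exact counting interval 209 to 46043), and edgeR gave an adjusted p of 0.0593. Dll1 was thus nearly unread in CLP and read in both ChILP libraries, and it was also read in PD-1+ cells (13.2 and 4.29 RPKM) and CCR6+ cells (21.2 and 7.41 RPKM). Egfl7 (NM_178444), a secreted protein with EGF-like repeats, stood at 139 and 264 RPKM in CLP and 37.4 and 39.6 RPKM in ChILP, a log2 fold change of -2.31 (SE 0.36). The paralogue Notch2 (NM_010928) stood at 8.77 and 7.73 against 6.3997 and 6.98 RPKM, a log2 fold change of -0.25, with no overlap but within 2-fold.

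Among receptors for growth factors and guidance cues, Gfra1 and Epha2 stood far lower in ChILP. Gfra1 (NM_010279), a cell-surface receptor for glial cell line-derived neurotrophic factor, stood at 8.75 and 14.2 RPKM in CLP and had no read in either ChILP library, at least 412-fold lower with 3 counts over the ChILP group as the floor (edgeR's adjusted p = 0.0593). It was read again in PD-1+ cells (0.811 and 0.878 RPKM) and CCR6+ cells (0.493 and 0.128 RPKM). Epha2 (NM_010139), an ephrin receptor kinase, stood at 3.42 and 5.23 RPKM in CLP and had 1 read in ChILP, a ratio of 565 (95% exact counting interval 101 to 22365) with an adjusted p of 0.0593 by edgeR. In PD-1+ and CCR6+ cells Epha2 stood at 1.87 and 1.88 and 1.62 and 0.855 RPKM. Both receptors thus had close to no read in the ChILP libraries and some in each PD-1+ and CCR6+ library, where erythroid and mature B and plasma cell markers were also higher than in ChILP. Of 32 guidance genes tested, 1 was 4-fold higher (Robo1) and 2 lower (Epha2 and Ephb4), shares of 3.12% and 6.25%. Of 36 receptor tyrosine kinases and their ligands 2 were higher (Fgf3 and Igf2) and 2 lower (Flt4 and Vegfa), 5.56% each. The shares of all genes were 2.68% and 2.87%. Of the genes in brackets all but Fgf3 were named after their values were seen, and all but Fgf3 and Epha2 lay at group means under 2 RPKM. Fgf3 (NM_008007), a secreted growth factor, stood at 3.37 and 5.78 RPKM in CLP and 18.9 and 42.05 RPKM in ChILP, and at 113 and 24.9 RPKM in PD-1+ and 3.21 and 4.25 RPKM in CCR6+ cells, where the CCR6+ libraries lay at the CLP level.

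G protein-coupled receptors for lipids and peptides differed gene by gene. Of 60 tested outside the chemokine receptors, 4 (6.67%) were 4-fold higher and 5 (8.33%) lower, against 2.68% and 2.87% of all genes. Nmur1 (NM_010341), the receptor for the neuropeptide neuromedin U and known from group 2 innate lymphoid cells, had 1 read in CLP and stood at 4.45 and 10.96 RPKM in ChILP, a ratio of 240.2 (95% exact counting interval 42.8 to 9519; edgeR's adjusted p = 0.292). It stood at 17.2 and 0.960 RPKM in the PD-1+ libraries and 0 and 0.0563 RPKM in the CCR6+ libraries, so the PD-1+ libraries were far apart and CCR6+ cells had next to none.

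Receptors for lysophosphatidic acid, a lipid mediator of migration, ran in opposite directions. Lpar6 (NM_175116) stood at 12.9 and 15.3 RPKM in CLP and 27.04 and 45.5 RPKM in ChILP. Lpar1 (NM_172989) stood at 4.28 and 9.21 against 0.301 and 0 RPKM, and the paralogue Lpar5 (NM_001163268) at 13.5 and 18.5 against 6.68 and 2.58 RPKM. The log2 fold changes were 1.42, -5.35 and -1.72, and none passed over all genes (edgeR's adjusted p = 0.263, 0.381 and 0.479). Gpr171 (NM_173398), a P2Y-like receptor, stood at 47.1 and 83.96 RPKM in CLP and 18.2 and 12.8 RPKM in ChILP, while P2ry13 (NM_028808), a receptor for ADP, stood at 7.17 and 3.16 against 1.105 and 0.487 RPKM.

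Other surface proteins of immune cells that stood apart included CD7, CD33, CD93 and receptors of the TNF family. Cd7 (NM_009854), an immunoglobulin-family protein of T and innate lymphocytes, stood at 14.5 and 15.2 RPKM in CLP and 42.3 and 54.2 RPKM in ChILP, and at 103 and 58.6 and 125 and 73.2 RPKM in PD-1+ and CCR6+ cells, all 6 of these above both CLP libraries. Cd33 (NM_001111058), a sialic acid-binding receptor of myeloid cells, stood at 15.8 and 15.04 RPKM in CLP and 1.58 and 1.97 RPKM in ChILP, a log2 fold change of -3.07 (SE 0.60). Cd93 (NM_010740), a receptor of early progenitors known as AA4.1, stood at 21.5 and 26.4 against 6.63 and 8.19 RPKM, a log2 fold change of -1.63 (SE 0.25). Cd33 and Cd93 were thus lower while the myeloid progenitor markers summed higher in both ChILP libraries, and the part of these markers in either result was not tested. Of 56 SLAM, lectin-like and paired receptors 2 were 4-fold higher (Sh2d1a and Klrb1b, named after their values were seen) and 1 lower, Cd33. These shares were 3.57% and 1.79%, against 2.68% and 2.87% of all genes.

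Within the TNF receptor superfamily, its ligands and the TRAF adaptors, 3 of 40 were 4-fold higher and 3 lower. These shares were 7.5% each, against 2.68% and 2.87% of all genes. Tnfrsf25 (NM_033042), the receptor for TL1A also called DR3, stood at 0.175 and 2.26 RPKM in CLP and 9.53 and 10.3 RPKM in ChILP. Traf1 (NM_009421), an adaptor of these receptors, stood at 1.49 and 0.382 against 4.07 and 9.72 RPKM. Tnfrsf13c (NM_028075), the BAFF receptor of B cells, stood at 8.24 and 10.3 against 3.02 and 0.476 RPKM. It stood at 8.30 and 17.9 RPKM in PD-1+ and 22.3 and 15.3 RPKM in CCR6+ cells, none below the lower CLP library. Mature B and plasma cell markers also summed higher there than in CLP. The TRAF adaptor paralogue Traf2 (NM_009422) stood at 22.4 and 18.5 against 22.99 and 24.5 RPKM, a log2 fold change of 0.26, and no gene of the list passed over all genes.

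**Figure D4:**
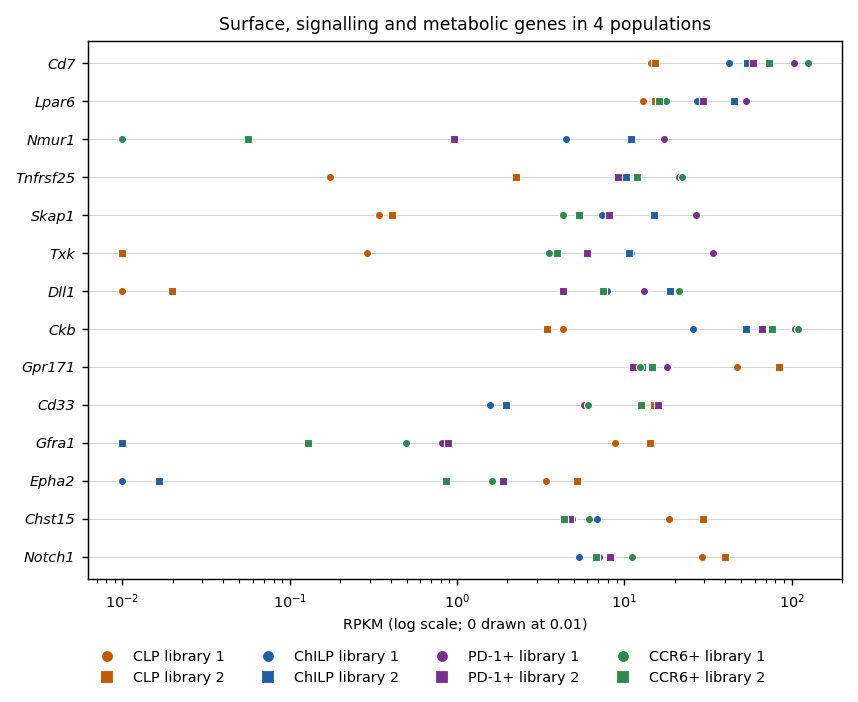
RPKM (log axis, 0 drawn at 0.01) of 14 surface, signalling and metabolic genes in all 8 libraries, coloured by population, with circles for library 1 and squares for library 2. Gfra1 and Epha2 are lowest in ChILP, Nmur1 is spread from 0.960 to 17.2 RPKM in PD-1+ cells, and Cd7 and Ckb are higher in all ChILP, PD-1+ and CCR6+ libraries than in either CLP library.

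Adhesion genes were 4-fold apart at or below the share of all genes. Of 102 tested in 4 lists, 1 was higher (0.98%, against 2.68% of all genes) and 3 were lower (2.94%, against 2.87%). Of these 102, 68.6% lay within 2-fold against 82.0% of all genes. None of 29 immunoglobulin-family, cadherin and selectin-ligand genes or of 20 tetraspanins met the rule. Tspan13 (NM_025359), a tetraspanin, was among the leading lower genes at 166 and 265 RPKM in CLP and 84.8 and 69.5 RPKM in ChILP, a log2 fold change of -1.41 (SE 0.23). The list of integrin and integrin partner genes outside the gate had a median log2 fold change of 0.55 over 21 tested, against 0.05 over all genes. At an unadjusted p under 0.05 by edgeR, 5 of the 21 were higher (Itgal, Itga2b, Ilk, Itgb3 and Itgb1, named after their values were seen) and 0 lower. The share of all genes higher at that p was 2.79%. By the 4-fold rule 0 of the 21 were higher and 1 was lower. Itgal (NM_001253872), the alpha chain of LFA-1, stood at 14.1 and 17.995 RPKM in CLP and 22.3 and 31.7 RPKM in ChILP. Itga2b (NM_010575), the platelet integrin alpha chain, stood at 37.99 and 18.6 against 128 and 37.8 RPKM, where ChILP replicate 2 lay at the level of CLP replicate 1. The 14 megakaryocyte and stromal markers, Itga2b among them, summed to 917 and 644 RPKM in CLP and 2115 and 716 RPKM in ChILP. Their sum was high in ChILP replicate 1 alone. Within this list the stromal markers Col1a1 and Bglap ran otherwise. Col1a1 stood at 125 and 80.9 RPKM in CLP and 176 and 0.43 RPKM in ChILP, and Bglap at 46.4 and 45.8 against 31.9 and 0.54 RPKM. Cxcl12, also stromal, stood at 27.3 and 10.1 against 9.21 and 22.9 RPKM. The part of these markers in the integrin values was not tested. Over the 4 lists the counts were 12 higher and 9 lower when ChILP replicate 2 was left out and 12 higher and 3 lower when CLP replicate 1 was, and lay at 1 to 3 higher and 5 to 6 lower when either of the others was. The counts over all genes also rose with 1 library left out, to 466 to 910 higher and 637 to 831 lower. Leaving out CLP replicate 1 moved the median of the integrin and integrin partner list to 0.71, leaving out CLP replicate 2 to 0.38, and leaving out ChILP replicate 1 to 0.25.

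Lpxn, Spon2 and Chad were among the leading higher genes. Lpxn (NM_134152), a paxillin-family adaptor of focal adhesions, stood at 5.75 and 7.56 RPKM in CLP and 13.7 and 24.4 RPKM in ChILP. Spon2 (NM_133903), a secreted matrix protein that binds integrins, stood at 8.69 and 8.28 against 27.98 and 35.8 RPKM, and Chad (NM_007689), a leucine-rich matrix protein, at 0.339 and 0.909 against 12.2 and 22.1 RPKM. Spon2 and Chad parted in the split populations: Spon2 stood at 25.1 and 11.2 RPKM in PD-1+ and 1.38 and 2.06 RPKM in CCR6+ cells, and Chad at 32.05 and 10.2 and 28.7 and 7.098 RPKM. Spp1 (NM_001204201), which encodes osteopontin, stood at 3.802 and 6.53 RPKM in CLP and 19.3 and 92.4 RPKM in ChILP, with most of the difference in ChILP replicate 2. The stromal markers Col1a1 and Bglap stood at 0.43 and 0.54 RPKM in ChILP replicate 2 and far higher in both CLP libraries and ChILP replicate 1. Their part in the values of these matrix genes was not tested. Of 99 proteases, inhibitors and matrix genes, 5 (5.05%) were 4-fold higher and 4 (4.04%) lower, against 2.68% and 2.87% of all genes. Spp1 alone of these 9 reached a mean of 5 RPKM in either group.

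Kinases and adaptors known from antigen-receptor signalling stood on both sides. Of 65 Src, Tec and Syk family kinases and antigen-receptor adaptors, 5 were 4-fold higher, among them Skap1, Txk, Trat1 and Cd3g, and 3 lower (Blk, Cd5 and Cd6); Trat1, Cd3g and Cd5 lay outside the rule for named genes. These shares were 7.69% and 4.62%, against 2.68% and 2.87% of all genes, and Trat1 and Cd3g also stand in the list of T and NK cell markers. Skap1 (NM_001033186), an adaptor that couples the T cell receptor to integrins, stood at 0.341 and 0.406 RPKM in CLP and 7.35 and 14.998 RPKM in ChILP, a log2 fold change of 4.94 (SE 0.70) with an adjusted p of 0.0812 by edgeR. Its paralogue Skap2 (NM_018773) stood at 35.2 and 46.3 against 42.5 and 28.8 RPKM, a log2 fold change of -0.13. Skap1 was thus under 1 RPKM in CLP and read in both ChILP libraries, while Skap2 was at like levels in all 4.

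Among kinases of the Tec family, Txk stood further apart than Tec and Btk, though none of them overlapped between the groups. Txk (NM_001122754), a Tec kinase known from T cells, stood at 0.290 and 0 RPKM in CLP and 10.97 and 10.7 RPKM in ChILP. The paralogue Tec (NM_001113460) stood at 6.26 and 5.403 against 9.65 and 11.5 RPKM, and Btk (NM_013482), the Tec kinase of B cells, at 37.7 and 43.5 against 28.4 and 29.95 RPKM. The log2 fold changes were 6.36 (SE 1.22) for Txk, 0.90 (SE 0.33) for Tec and -0.42 (SE 0.30) for Btk, and none passed over all genes. In the split populations Txk was highest in PD-1+ replicate 1, at 33.6 RPKM, against 6.00 RPKM in PD-1+ replicate 2.

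Blk (NM_007549), the Src-family kinase of B cells, ran the other way, at 18.6 and 34.9 RPKM in CLP and 1.17 and 0.0785 RPKM in ChILP, a log2 fold change of -5.31 (SE 0.95). The Src-family paralogues Lck (NM_010693) and Lyn (NM_001111096) stood at 29.4 and 68.4 against 40.3 and 57.2 RPKM and at 18.4 and 14.1 against 15.6 and 16.9 RPKM, so the groups overlapped for Lck, known from T cells, where they did not for Txk. Sla (NM_009192), an adaptor that dampens antigen-receptor signalling, stood at 34.98 and 30.6 RPKM in CLP and 64.3 and 64.4 RPKM in ChILP. Cd6 (NM_009852), a scavenger-type receptor of lymphocytes, stood at 4.04 and 11.4 against 1.696 and 1.92 RPKM. H2-Ob (NM_010389), a chain of the MHC class II modulator H2-O, stood at 63.9 and 114 RPKM in CLP and 14.9 and 9.002 RPKM in ChILP (log2 fold change -2.82 (SE 0.34), edgeR's adjusted p = 0.0593), while its partner chain H2-Oa (NM_008206) stood at 15.1 and 31.6 against 22.8 and 24.95 RPKM. H2-Ob stood at 50.6 and 35.7 RPKM in PD-1+ and 30.5 and 25.6 RPKM in CCR6+ cells, between the CLP and ChILP levels. The 12 mature B and plasma cell markers, H2-Ob among them, summed to 305 and 394 RPKM in CLP and 183 and 170 RPKM in ChILP, and their part in the values of Blk, H2-Ob and Tnfrsf13c was not tested.

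Other leading signalling genes were phosphatases, lipid carriers and kinases. Ptp4a3 (NM_008975), a membrane-anchored phosphatase, stood at 107 and 134 RPKM in CLP and 40.4 and 38.8 RPKM in ChILP, a log2 fold change of -1.55 (SE 0.22), while its paralogue Ptp4a2 (NM_008974) stood at 30.4 and 37.6 against 35.998 and 33.6 RPKM. In the split populations Ptp4a3 lay between the CLP and ChILP levels, at 66.8 and 84.1 RPKM in PD-1+ and 95.3 and 75.8 RPKM in CCR6+ cells. Dusp2 (NM_010090), a phosphatase that switches off MAP kinases, stood at 174 and 172 against 62.1 and 39.4 RPKM. Of its relatives, Dusp6 (NM_026268) stood at 36.6 and 34.9 against 20.4 and 15.1 RPKM and Dusp1 (NM_013642) at 115 and 90.4 against 257 and 60.1 RPKM, so Dusp2 and Dusp6 were lower in both ChILP libraries and Dusp1 was high in 1 of them. Rasal1 (NM_013832), a Ras GTPase-activating protein, stood at 3.38 and 9.39 RPKM in CLP and had no read in ChILP, at least 236-fold lower (edgeR's adjusted p = 0.275). Pitpnm1 (NM_001136078), a phosphatidylinositol transfer protein, stood at 5.12 and 4.68 RPKM in CLP and 13.01 and 15.2 RPKM in ChILP, a log2 fold change of 1.58 (SE 0.23).

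Camk2d (NM_001025438), a calcium-dependent kinase, stood at 9.05 and 12.4 RPKM in CLP and 3.12 and 3.67 RPKM in ChILP, and Cdk19 (NM_001168304), a kinase of the Mediator complex, at 12.9 and 19.3 against 2.53 and 3.84 RPKM. S100a4 (NM_011311), a calcium-binding protein of motile cells, stood at 49.6 and 38.9 against 117 and 214 RPKM and reached 493 and 546 RPKM in PD-1+ and 525 and 541 RPKM in CCR6+ cells, the libraries with the higher neutrophil and monocyte marker sums. In the TGF-beta and BMP list, 1 of 40 was 4-fold higher (Bmp2, named after its values were seen) and 3 lower. These shares were 2.5% and 7.5%, against 2.68% and 2.87% of all genes. Smad1 (NM_008539), a transducer of BMP signals, stood at 3.35 and 6.98 against 1.01 and 0.894 RPKM, and its relatives Smad5 (NM_001164041) and Smad2 (NM_010754) at 3.61 and 2.83 against 3.28 and 3.12 RPKM and 3.83 and 5.41 against 5.41 and 4.74 RPKM. In the Wnt and Hedgehog list, 1 of 44 was higher (2.27%) and 2 lower (4.55%). Among the lower was Tcf7l2 (NM_001142920), a paralogue of Tcf7, at 5.43 and 8.89 RPKM in CLP and 1.05 and 1.51 RPKM in ChILP, the reverse of Tcf7. The phosphoinositide and calcium list held 1 of 70 higher (1.43%) and 0 lower.

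One cytokine gene was among the leading lower genes. Il12a (NM_008351), the p35 subunit shared by IL-12 and IL-35, stood at 77.95 and 153 RPKM in CLP and 8.87 and 3.82 RPKM in ChILP, a log2 fold change of -4.11 (SE 0.50), with an adjusted p of 0.0593 by edgeR. PD-1+ cells held 4.44 and 2.81 RPKM and CCR6+ cells 2.57 and 2.21 RPKM, all below the lower CLP library. Regulators of transcription among the leading genes were Lmo4 (NM_010723), a LIM-only cofactor, at 38.7 and 40.7 RPKM in CLP and 178 and 312 RPKM in ChILP, Nr1d1 (NM_145434), the heme-binding repressor of the circadian clock, at 1.74 and 2.05 against 13.1 and 23.9 RPKM, and Foxp1 (NM_053202), a forkhead factor of lymphoid development, at 23.2 and 30.9 against 8.399 and 11.3 RPKM. The paralogue Lmo2 (NM_001142336) stood at 139.8 and 159.7 against 163 and 136 RPKM and Nr1d2 (NM_011584) at 1.25 and 2.52 against 0.826 and 2.14 RPKM. Xrcc6 (NM_010247), the Ku70 subunit that binds DNA ends during repair and antigen-receptor gene joining, stood at 132 and 212 RPKM in CLP and 48.7 and 44.03 RPKM in ChILP, whereas its partner Xrcc5 (NM_009533), Ku80, stood at 14.04 and 12.6 against 10.4 and 10.5 RPKM. In each of these pairs the first gene stood further apart between the groups, and the second had a log2 fold change of 0.06 (Lmo2), -0.27 (Nr1d2) or -0.30 (Xrcc5). Xrcc5 also had no overlap, in the direction of Xrcc6, but lay within 2-fold.

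Most myosin genes other than Myo1e were level, and the light chains Myl10 and Myl4 were lower in ChILP. Of 28 tested, 2 were 4-fold higher (Myo1e and Myo6, the latter at low level and named after its values were seen) and 2 lower (Myl10 and Myl4). These shares were 7.14% each, against 2.68% and 2.87% of all genes, and 82.1% lay within 2-fold against 82.0%. Myl10 (NM_001085387), a regulatory light chain first described in precursor lymphocytes, stood at 269 and 527 RPKM in CLP and 12.5 and 24.4 RPKM in ChILP, a log2 fold change of -4.35 (SE 0.68) with an adjusted p of 0.0854 by edgeR. Myl4 (NM_010858), the light chain known from embryonic muscle and atrium, stood at 52.9 and 53.4 against 5.52 and 0.8804 RPKM. Myl10 and Myl4 were lower in every ChILP library than in every CLP library, as the rule that named them required.

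The class I myosins best known from blood cells were level. Myo1f (NM_053214) stood at 33.8 and 43.7 RPKM in CLP and 46.6 and 40.7 RPKM in ChILP, Myo1g (NM_178440) at 35.1 and 32.4 against 34.8 and 37.05 RPKM, and Myh9 (NM_022410), the nonmuscle myosin heavy chain, at 14.9 and 13.2 against 14.4 and 14.2 RPKM. Their log2 fold changes were 0.23, 0.14 and 0.08, so Myo1e stood apart from its relatives in fold while remaining below Myo1f and Myo1g in level. Myl9 (NM_172118), a smooth muscle light chain also abundant in platelets, stood at 41.9 and 9.28 against 239 and 41.8 RPKM, overlapping between groups and highest in ChILP replicate 1, as the megakaryocyte markers were. Cnn3 (NM_028044), an actin-binding calponin, stood at 93.9 and 169 RPKM in CLP and 29.4 and 24.4 RPKM in ChILP, while Cnn2 (NM_007725) stood at 137 and 89.5 against 225 and 170.4 RPKM. Of 60 actin, septin, filament and scaffold genes 3 were 4-fold higher (Nebl, Dst and Ank3, named after their values were seen) and 0 lower. The share higher was 5.0%, against 2.68% of all genes.

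**Figure D5:**
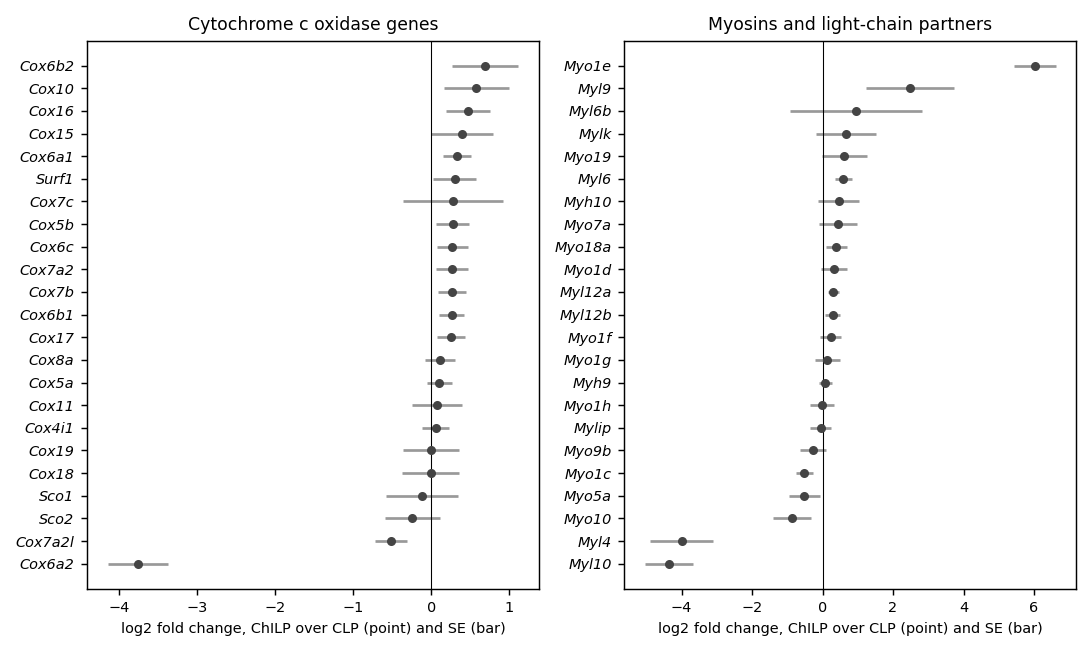
Log2 fold change, ChILP over CLP, with its SE (bars) from edgeR, for 23 cytochrome c oxidase genes (left) and 23 myosins and light-chain partners (right) that averaged 1 RPKM or more in a group. Cox6a2 lies at -3.76 and all other oxidase genes lie within 1 of 0, while Myo1e lies at 6.02 and Myl10 and Myl4 at -4.35 and -3.99.

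Transcripts of core energy metabolism mostly lay within 2-fold between the populations. Erythroid and myeloid progenitor markers were read at high levels in all 4 libraries, and their part in these values was not tested. Of 457 tested genes in 8 metabolic lists, 87.3% lay within 2-fold, against 82.0% of all genes. Of the 457, 9 (1.97%) were 4-fold higher and 13 (2.84%) lower, against 2.68% and 2.87% of all genes. Leaving out CLP replicate 1 gave 23 higher and 16 lower, and leaving out CLP replicate 2 gave 9 and 12. Leaving out ChILP replicate 1 gave 15 and 25, and leaving out ChILP replicate 2 gave 15 and 16. Over all genes, leaving out 1 library raised the counts to 466 to 910 higher and 637 to 831 lower. Each of the 36 tricarboxylic acid cycle and glutamine genes tested lay within 2-fold, as did 57 of 59 nucleotide and one-carbon genes and 23 of 24 cytochrome c oxidase genes, Cox6a2 being the exception. The ubiquitous form of its subunit, Cox6a1 (NM_007748), stood at 692 and 749 RPKM in CLP and 906 and 841 RPKM in ChILP, a log2 fold change of 0.33 (SE 0.18). Cox6a2 therefore ran well below Cox6a1 in all 4 libraries, and the ubiquitous form did not pass in either direction. Cox4i1 (NM_009941) stood at 1122 and 1206 against 1081 and 1247 RPKM and Cox8a (NM_007750) at 825 and 704 against 729.9 and 865 RPKM. Cox6b2 (NM_183405), an isoform known from testis, stood at 80.2 and 40.3 against 75.8 and 115 RPKM, overlapping between groups.

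In glycolysis, 45 of 49 genes lay within 2-fold. Ldha (NM_010699), lactate dehydrogenase A, stood at 396 and 445 RPKM in CLP and 489.6 and 467 RPKM in ChILP, Hk1 (NM_001146100), hexokinase 1, at 70.9 and 79.02 against 78.7 and 66.9 RPKM, and Slc2a1 (NM_011400), the glucose transporter GLUT1, at 9.85 and 19.05 against 13.5 and 13.6 RPKM. The log2 fold changes of these genes were 0.24, 0.01 and -0.02. The 2 glycolysis and glycogen genes that stood 4-fold apart were muscle forms in opposite directions. Pgam2 (NM_018870), the muscle phosphoglycerate mutase, stood at 2.68 and 0.453 RPKM in CLP and 14.5 and 23.5 RPKM in ChILP. Pygm (NM_011224), the muscle glycogen phosphorylase, stood at 9.73 and 18.6 against 2.64 and 0.0683 RPKM, and the liver and brain forms Pygl (NM_133198) and Pygb (NM_153781) at 29.9 and 14.3 against 25.9 and 19.8 RPKM and 11.8 and 15.9 against 10.2 and 21.6 RPKM. Neither passed over all genes (edgeR's adjusted p = 0.312 for Pgam2 and 0.753 for Pygm), and the ubiquitous Pgam1 (NM_023418) was listed at only 2.91 and 3.84 RPKM in CLP, a gene with near-identical copies whose counts are uncertain.

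Ckb (NM_021273), the brain-type creatine kinase that buffers ATP, had the smallest p of the genes of energy metabolism higher in ChILP that are named here. It stood at 4.2997 and 3.47 RPKM in CLP and 25.6 and 53.7 RPKM in ChILP, a log2 fold change of 3.40 (SE 0.43) with an adjusted p of 0.0593 by edgeR. Both PD-1+ libraries (105 and 66.3 RPKM) and both CCR6+ libraries (109 and 75.8 RPKM) lay above both ChILP libraries. The muscle form Ckm (NM_007710) stood at 1.19 and 0.917 RPKM in CLP and 0.271 and 1.37 RPKM in ChILP. Ckb was thus the only one of these 2 forms to stand apart between the groups.

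Transporters, lipid enzymes and sugar-modifying enzymes held most of the remaining genes apart, nearly all at low levels. Of 107 transporters and channels 2 (1.87%) were 4-fold higher and 6 (5.61%) lower, against 2.68% and 2.87% of all genes. Slc35d3 (NM_029529), a member of the nucleotide-sugar transporter family, stood at 24.5 and 40.5 RPKM in CLP and 5.21 and 5.495 RPKM in ChILP, a log2 fold change of -2.53 (SE 0.44) with an adjusted p of 0.1 by edgeR. Slc27a2 (NM_011978), a fatty acid transporter and acyl-CoA synthetase, stood at 4.996 and 5.405 against 0 and 1.46 RPKM. Lrrc52 (NM_001013382), an auxiliary subunit of potassium channels, stood at 0.575 and 0.781 RPKM in CLP and 6.69 and 24.96 RPKM in ChILP, and at 64.1 and 11.4 RPKM in PD-1+ but 0.0823 and 0 RPKM in CCR6+ cells.

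Srxn1 (NM_029688), which repairs oxidised peroxiredoxins, was the 1 gene of 60 in the glutathione, thiol and peroxide list that stood 4-fold apart, at 2.06 and 1.19 RPKM in CLP and 13.8 and 2.36 RPKM in ChILP, with the difference in ChILP replicate 1. Of 78 fatty acid, phospholipid and sphingolipid genes 3 (3.85%) were higher and 4 (5.13%) lower, none with a mean of 5 RPKM in either group. Of 81 glycosyltransferase, sulfotransferase and proteoglycan genes 7 (8.64%) were higher and 1 (1.23%) lower, and all 8 lay at or under 2.73 RPKM in the 4 libraries. The shares of all genes were 2.68% and 2.87%. Spock2 (NM_052994), a proteoglycan, had no read in CLP and stood at 1.03 and 2.73 RPKM in ChILP, a difference of at least 62.7-fold, and was named after its values were seen. Chst15 (NM_029935), which sulfates chondroitin, was among the leading lower genes at 18.5 and 29.3 RPKM in CLP and 6.89 and 4.65 RPKM in ChILP, a log2 fold change of -1.98 (SE 0.33), just short of 4-fold.

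The remaining leading genes have less settled roles or none given here. Tmem51 (NM_145402) stood at 2.64 and 2.52 RPKM in CLP and 13.001 and 12.4 RPKM in ChILP, with a log2 fold change of 2.35 (SE 0.28) and an adjusted p of 0.0593 by edgeR. Bcas1 (NM_029815) stood at 0.272 and 0.818 against 8.54 and 17.8 RPKM and was listed at 0 in both CCR6+ libraries. Rab19 (NM_011226), a small GTPase of vesicle traffic, stood at 5.16 and 1.86 against 18.3 and 35.4 RPKM, and Fam129a (NM_022018) at 4.03 and 2.95 against 11.4 and 22.9 RPKM. Tmem51, Rab19 and Fam129a were also read in all PD-1+ and CCR6+ libraries. Smap2 (NM_133716), a regulator of Arf GTPases, stood at 33.5 and 39.7 RPKM in CLP and 13.3 and 14.4 RPKM in ChILP. Tmem108 (NM_178638) stood at 8.48 and 18.2 against 1.57 and 1.67 RPKM.

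Calls by other tests were more numerous. The DESeq2 Wald test called 115 genes higher (0.844%) and 148 lower (1.09%), among them Ckb, Dll1, Skap1, Gfra1, Il12a, Myl10 and Notch1, with adjusted p-values of 6.67e-12, 2.40e-08, 4.97e-09, 8.56e-10, 7.52e-13, 4.56e-10 and 1.76e-08. With DESeq2, limma on log2(RPKM + 1) and edgeR on the 4 libraries alone required together, 11 genes were higher and 22 lower. Outside the gate, innate lymphoid and B lineage lists that set held Lmo4 among the higher genes. Its lower genes outside those lists were Cnn3, Cox6a2, Egfl7, Epha2, Gfra1, H2-Ob, Il12a, Myl10, Notch1, Ptp4a3, Rasal1 and Slc35d3, all described above, and AI848285, Emp1, Kcng1, Klhl30, Myog and Pgr, which were named after their values were seen. Myog (NM_031189), a transcription factor known from skeletal muscle, stood at 6.88 and 18.1 RPKM in CLP and 0 and 0.0438 RPKM in ChILP, and Pgr (NM_008829), the progesterone receptor, at 1.78 and 3.02 against 0 and 0 RPKM. Emp1 (NM_010128), a membrane protein of epithelial and other cells, stood at 10.1 and 14.2 RPKM in CLP and 0.483 and 0.405 RPKM in ChILP, and Kcng1 (NM_001081134), a modifier subunit of potassium channels, at 29.7 and 43.4 against 0.922 and 2.21 RPKM. In each of these 4 genes both ChILP libraries lay below both CLP libraries. They were picked by calls on these same libraries, so this adds no support for them.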

How the data were processed

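Polyadenylated RNA of sorted marrow cells was made into Smart-seq2 libraries, a full-length method with amplification, and sequenced in reads of 50 bp, per the labels' protocols. Bowtie2 2.2.2, CASAVA 1.8.4 and the build mm9 are listed in the submitters' processing notes without a role. No source used here gives the counter or its strand setting, so antisense reads may be mixed with those of the gene. The authors deposited 1 table per library holding, for 29257 transcripts, a raw count of reads, an RPKM value (the count scaled by transcript length and library total) and 2 further columns, length and number of loci. The deposited RPKM values hold no other scaling.

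Counts of 1 transcript per symbol (largest mean over the 8 libraries) were tested here by the robust quasi-likelihood F test of edgeR 4.0.16 (R 4.3.3), two-sided, in 1 fit of all 4 groups after TMM scaling and the filter of filterByExpr (minimum count 10), with a threshold of 0.05 on the p adjusted by Benjamini-Hochberg. Spread was large (common coefficient of variation 0.526) and its estimate rested on 4 residual degrees of freedom beside 3.93 prior ones (median). The script was tested on simulated data. For 337 symbols the transcript lies at several loci and 1106 genes share all counts with another gene; such copies are uncertain. For a group without reads the fold is a bound computed from 3 counts over the group; with 1 to 3 reads the ratio carries a 95% interval by the exact Clopper-Pearson method, which covers counting error only, as amplified reads are not independent molecules.

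Members and lists were chosen with earlier results of these data known. Named genes were Tcf7, Flt3, every gene past the threshold, up to 20 per direction by smallest p with a mean of at least 10 RPKM and no overlap, outside the gate, innate lymphoid and B lineage lists, and up to 3 per direction and list among members 4-fold apart with a mean of at least 5 RPKM; paralogues and other list members were added for contrast with their values known. Of the lists' symbols 1705 were found in the tables and 21 were not. Alternatives were the DESeq2 1.42.0 Wald test, DESeq2 size factors, limma 3.58.1 on log2(RPKM + 1) and log2(RPKM + 0.1), other filters, only the 4 libraries, a replicate block, the longest transcript (another for 535 symbols) and leaving out each library. Some named genes and 1 list are not reported here, though they stay in the counts. Promoter windows and motif counts came from RefSeq (GRCm38.p6) by gene symbol.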

Additional observations from a re-analysis of the deposited data

How the results depend on the processing

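The number of genes past the threshold, 1 higher and 2 lower in ChILP, depended on nearly every choice. It was 115 higher and 148 lower with the DESeq2 Wald test, 0 and 0 with DESeq2 size factors (where all 3 genes had an adjusted p of 0.0513 by edgeR), 15 and 39 with limma on log2(RPKM + 1), 26 and 23 with limma on log2(RPKM + 0.1), 22 and 41 with no filter on low counts, 8 and 7 with a filter of 5 RPKM in 2 libraries, and 27 and 32 with only the 4 ChILP and CLP libraries; the longest transcript gave 1 and 2. The count of 0 with DESeq2 size factors compares with 380 higher and 412 lower at an unadjusted p under 0.05 under TMM scaling. Leaving out 1 library gave 0 to 15 higher and 0 to 9 lower. The genes 4-fold apart with no overlap, 365 higher and 391 lower, numbered 71 and 73 on the log2(RPKM + 1) scale, which understates folds of low genes, 105 and 86 with a filter of 5 RPKM, 743 and 847 at 2-fold, and 466 to 910 higher and 637 to 831 lower with 1 library left out. None of the 64 genes chosen by the naming rule changed direction under any of the 14 alternatives that gave it a value. Lpar1, Rasal1, Slc27a2 and Smad1 had no value with the filter of 5 RPKM in 2 libraries. All but Tcf7, Flt3 and Myo1e were chosen for having no overlap between libraries. Their direction could therefore hardly change, and its constancy is no support for them. Apart from the fewer genes or libraries that an alternative leaves by construction, the cause of the changed counts was not tested.

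The labels name no pairing beyond a number in the title, and the main fit did not pair the libraries. Same-numbered ChILP and CLP libraries deviated from their group means with a correlation of 0.094 across genes. This value over all genes cannot decide on pairing, since erythroid, neutrophil and monocyte markers were higher in both number 1 libraries than in both number 2 libraries. Pairing was not tested. With the replicate block edgeR called 0 higher and 0 lower in all 8 libraries. In the 4 libraries alone it called 47 higher and 65 lower with the block and 27 and 32 without it.

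At 7685188 to 13997897 reads a library, genes under about 1 RPKM rest on few reads, and their fold changes carry wide errors. With 2 libraries a group, a library that stands apart cannot be told from spread within the group.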
